A study of Homo sapiens and Mus musculus with 19 samples.

Results

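The comparison asks which transcripts depend on the resting activity of NF-kB in human lung cancer lines for which the labels name no stimulus. It sets 5 arrays of cells carrying an IkBα super-repressor (IkB_SR) against 5 arrays of cells carrying the empty retroviral vector (MiG), 1 of each in A549, H23, H358, HCC827 and PC9. These 10 arrays were taken from 19 in the whole series by the vector and line named in their labels. The super-repressor is IkBα in which the 2 serines that IKK phosphorylates are replaced by alanine. The empty vector carries only the green fluorescent protein marker, and all transduced cells, controls included, had been sorted on that marker. A549 is labelled lung carcinoma, H23, HCC827 and PC9 lung adenocarcinoma, and H358 bronchioalveolar carcinoma. All were cultured in RPMI with serum, and the values are array signals (intensity on the MAS5 scale) from labelled total RNA. A further set of 5 arrays, the same lines carrying an activated IKKβ (IKKb), entered the fit and is quoted beside some genes. Each line contributed 1 array per vector, so the 5 lines are the replicates and a difference within a single line has no replicate. In bulk RNA, fewer cells expressing a gene and less RNA per cell cannot be told apart.

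NF-kB is a family of dimers built from RELA, REL, RELB, p50 (from NFKB1) and p52 (from NFKB2). In resting cells IkB proteins hold them in the cytoplasm. Stimuli act through the IKK kinases, which phosphorylate IkBα and mark it for destruction, and an IkBα that cannot be phosphorylated keeps the dimers bound. NF-kB then switches on genes for chemokines, cytokines, adhesion molecules and antigen presentation, and also genes that limit it, such as NFKBIA (IkBα itself), TNFAIP3 (A20) and TNIP1.

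Many of these genes carry a decameric NF-kB motif (the kB consensus) close to the start site. The 8 promoter stretches below were read from the RefSeq promoter table (GRCh38.p14) and are shown because the results turn on these genes: NF-kB subunits and feedback genes, a cytokine, a chemokine and an antigen transporter. Capitals mark bases in a kB consensus match on either strand, and each stretch lies before the start site and reads 5′ to 3′ along the gene's strand.
TNFAIP3, chr6:137867167-137867238, + strand: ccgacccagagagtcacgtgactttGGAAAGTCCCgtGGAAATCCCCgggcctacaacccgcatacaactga
NFKB1, chr4:102501285-102501344, + strand: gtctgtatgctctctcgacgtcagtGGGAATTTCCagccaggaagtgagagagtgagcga
NFKB2, chr10:102394446-102394534, + strand: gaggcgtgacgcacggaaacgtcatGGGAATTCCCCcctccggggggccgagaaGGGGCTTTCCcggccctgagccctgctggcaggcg
TNIP1, chr5:151081042-151081101, - strand: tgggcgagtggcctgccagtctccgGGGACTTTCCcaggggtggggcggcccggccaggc
NFKBIA, chr14:35404796-35404855, - strand: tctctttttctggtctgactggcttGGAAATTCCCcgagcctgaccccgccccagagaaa
IL32, chr16:3065279-3065339, + strand: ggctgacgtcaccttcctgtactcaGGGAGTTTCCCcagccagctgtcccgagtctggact
CXCL1, chr4:73869289-73869349, + strand: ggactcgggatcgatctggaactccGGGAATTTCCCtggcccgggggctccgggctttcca
TAP1, chr6:32853742-32853801, - strand: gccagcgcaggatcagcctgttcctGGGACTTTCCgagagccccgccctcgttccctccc

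The motif begins 67 and 55 bases before the start site in TNFAIP3, 49 in NFKB1 and 42 in TNIP1. Of the 15185 genes tested, 12113 had at least 1 window of 300 bases in the promoter table, from 250 bases before to 50 after a start, and 8.91% of these genes held a match in any of their windows. Counted by window, 6.76% of 17449 windows held one. A match was present for 7 of 8 NF-kB subunit and IkB genes with a window, 7 of 10 chemokines, 7 of 17 class I presentation genes and 6 of 21 interferon-stimulated genes. Among genes lower with the super-repressor in all 5 lines it was 11.6% of 455, and among those higher in all 5 lines 8.44% of 486. These shares are descriptions of letters in a window, with no test.

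Of 20 epithelial genes measured, 10 lay above the 40th percentile of every one of the 10 arrays, among them KRT8, KRT18, EPCAM and CDH1. EPCAM with MiG was 448.8 in A549 and 299.6 in H23, against 13780 to 16230 in the other lines. The leukocyte marker PTPRC was above the percentile on none, but the leukocyte markers CD79A and CSF1R were above it on all 10. So were COL1A1, DCN, ACTA2 and PECAM1 of the fibroblast and endothelial markers. Median signals over all 15 human arrays ran from 51.3 to 76.5, each array having been scaled by the authors to the same trimmed mean of 500. Within a line the ratio of 3′ to 5′ actin signal differed little between MiG and IkB_SR. The Dap spike-in control was close in both arrays of 4 lines, whereas in PC9 it was 2376 with MiG and 4047 with IkB_SR, and its part in the PC9 differences was not tested. Among the IKKb arrays, Dap was 4354 in PC9 and 4376 in H358, against 1128 with MiG in H358. The actin ratio in H358 was 1.74 with IKKb and 1.41 with MiG. What these differences add to the IKKb values and to the fit was not tested.

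NFKBIA, which the vector encodes, was the check on the labels. Its signal was 4581 with MiG and 7343 with IkB_SR in A549, 2200 and 8963 in H358, 2058 and 14580 in HCC827, and 1185 and 7167 in PC9. In H23 it was 9329 with MiG and 7292 in the array labelled H23 IkB_SR. The transcript was therefore higher in 4 lines and lower in H23, the line with the most NFKBIA under the empty vector, and the endogenous transcript and the vector's cannot be told apart on this probe set. The mean difference was 1.55 ± 0.39 on the log2(signal + 16) scale (SE, n = 5 lines, limma adjusted p = 0.825). The NFKBIA signal, lower in H23, mixes both transcripts and cannot settle the label there. Counts of genes lower in every line are therefore also given for the 4 lines without H23.

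**Figure D1:**
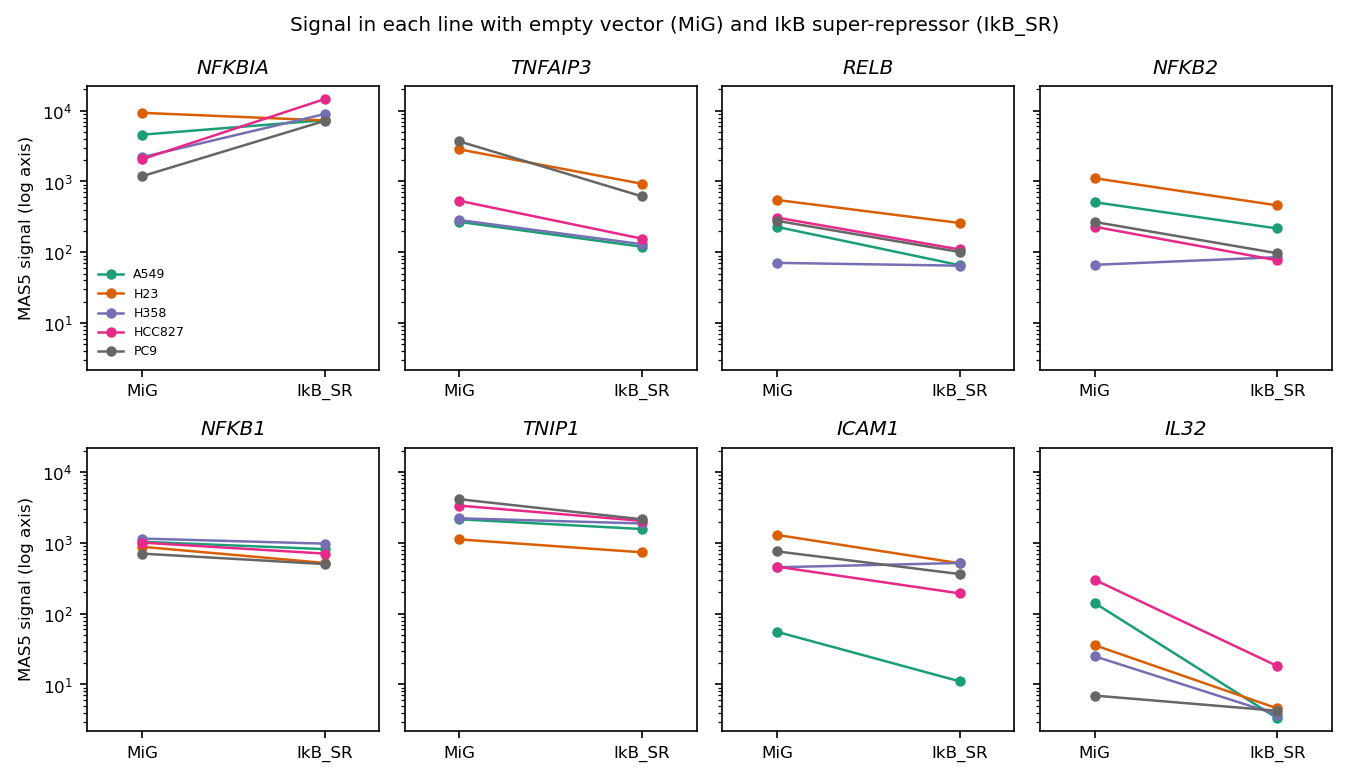
MAS5 signal (log axis) of 8 genes in each of the 5 lines, with a line joining the MiG array to the IkB_SR array of the same cell line. NFKBIA is higher on the right in 4 lines and lower in H23, whereas TNFAIP3, NFKB1 and TNIP1 slope down in all 5, and RELB, NFKB2 and ICAM1 are nearly flat or reversed in H358 on the probe sets plotted.

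Across the 15185 genes, 0 passed an adjusted p of 0.05 in the fit over 15 arrays (0% called), and the smallest adjusted p was 0.564, for TAP2. At an unadjusted p under 0.05 there were 331 genes lower (2.18%) and 331 higher (2.18%), 662 in all against 759.25 expected at that level. A fit restricted to the 10 MiG and IkB_SR arrays called 1 gene (0.00659%), TNFAIP3, at an adjusted p of 0.0482, and had 1027 genes at an unadjusted p under 0.05. All gene values below are therefore measurements that did not pass the test over 15 arrays. Each is a mean difference over 5 lines, IkB_SR minus MiG, in log2(signal + 16), where -1 is a 2-fold lower value. Adding 16 makes the difference of a dim gene smaller than its true fold. The ± values, intervals and p-values come from the fit over 15 arrays, so the spread of the IKKb arrays enters them too. In the 10-array fit the SE was smaller for 10965 of the 15185 genes. The median SE was 0.126 there and 0.145 over 15 arrays, with 4 and 8 residual degrees of freedom.

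By sign, 561 genes were lower with IkB_SR in all 5 lines (3.69%) and 613 were higher in all 5 (4.04%). With each array centred on its median these counts were 333 and 676. That centring moved the median of all genes from -0.05 to 0.14 in A549 and from 0.03 to -0.12 in H23, so small list medians in those lines have no settled sign. Without the H23 pair, 1067 genes were lower in the other 4 lines (7.03%). A sign is read from background where both arrays of a line lie below their 40th percentile. Below, a difference is called a bound where only the IkB_SR signal lay under that percentile and the percentile was put in its place. The per-line differences had little in common over all genes, with Pearson correlations between lines from -0.00563 to 0.102 (15185 genes, which are not independent). HCC827 and PC9 had the highest of them.

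The 10 genes with the smallest p among those lower in all 5 lines included RELB and NFKB1, subunits of NF-kB itself, and TAP2, which with TAP1 forms the pump that loads peptides for MHC class I. They also included OPTN, a ubiquitin-binding adaptor that limits NF-kB signalling, NFE2L3, a CNC-family transcription factor, and ROBO1, an axon-guidance receptor. The others were MYBL1, TRIM47, CAVIN3 and LOC100996740. CAVIN3 lay below the 40th percentile with both vectors in H23, so its sign there is read from background. TAP2 signals with MiG and IkB_SR were 389 and 312.4 in A549, 1115 and 669 in H23, 1088 and 754.4 in H358, 2587 and 1372 in HCC827, and 912.9 and 589.3 in PC9. Every line was lower on this brightest probe set, by 0.30 to 0.91, and the mean was -0.61 ± 0.10 (limma adjusted p = 0.564). A further TAP2 probe set, above the 40th percentile on all 10 arrays, was lower in 4 lines. It was at 0.17 in A549 and -0.45 on average. The dimmest of the 3 measured was also lower in 4 lines, with 0.40 in H23. NFE2L3 signals were 184.4 and 88.25 in A549, 1714 and 753.1 in H23, 381.9 and 63.54 in H358, 1457 and 552.7 in HCC827, and 7105 and 5287 in PC9. Its lowest value relative to control was in H358, and its mean was -1.25 ± 0.27 (limma adjusted p = 0.725). OPTN was -0.73 ± 0.17 and was lowest in PC9, where the signal was 597.7 with MiG and 167.2 with IkB_SR. MYBL1 was -0.63 ± 0.13 on its brightest probe set, but 1 of its 3 measured probe sets pointed the other way.

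Among genes higher in all 5 lines, the smallest p belonged to INHBB, which encodes the βB subunit of activin B. Its signals with MiG and IkB_SR were 1278 and 4105 in A549, 62.5 and 119.7 in H23, 6726 and 8932 in H358, 1009 and 2261 in HCC827, and 3691 and 6993 in PC9. The mean was 0.99 ± 0.19 (limma adjusted p = 0.725), with A549 at the top and H358 at the bottom. TIMP2, an inhibitor of matrix metalloproteinases, was 0.35 ± 0.09 from signals between 2011 and 7174 under the empty vector. FBLN1, a matrix glycoprotein, was 0.66 ± 0.16, and CCNG1, a p53-responsive cyclin, was 0.26 ± 0.07. The others were CD6, PSG5, DOCK11, ADSS1, KLHDC8B and UCP2, and CD6 was dim, between 17.08 and 75.44 with MiG. PSG5 lay below the 40th percentile on 3 MiG arrays, and with both vectors in H23. A further ADSS1 probe set, above that percentile on all 10 arrays, was lower in 4 lines, at -0.16 on average. With IKKb, against the same MiG arrays, INHBB was -0.37, and the 10 genes ran from -0.66 for DOCK11 to 0.42 for CD6. Both comparisons share the MiG arrays, so these values are not independent.

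**Figure D2:**
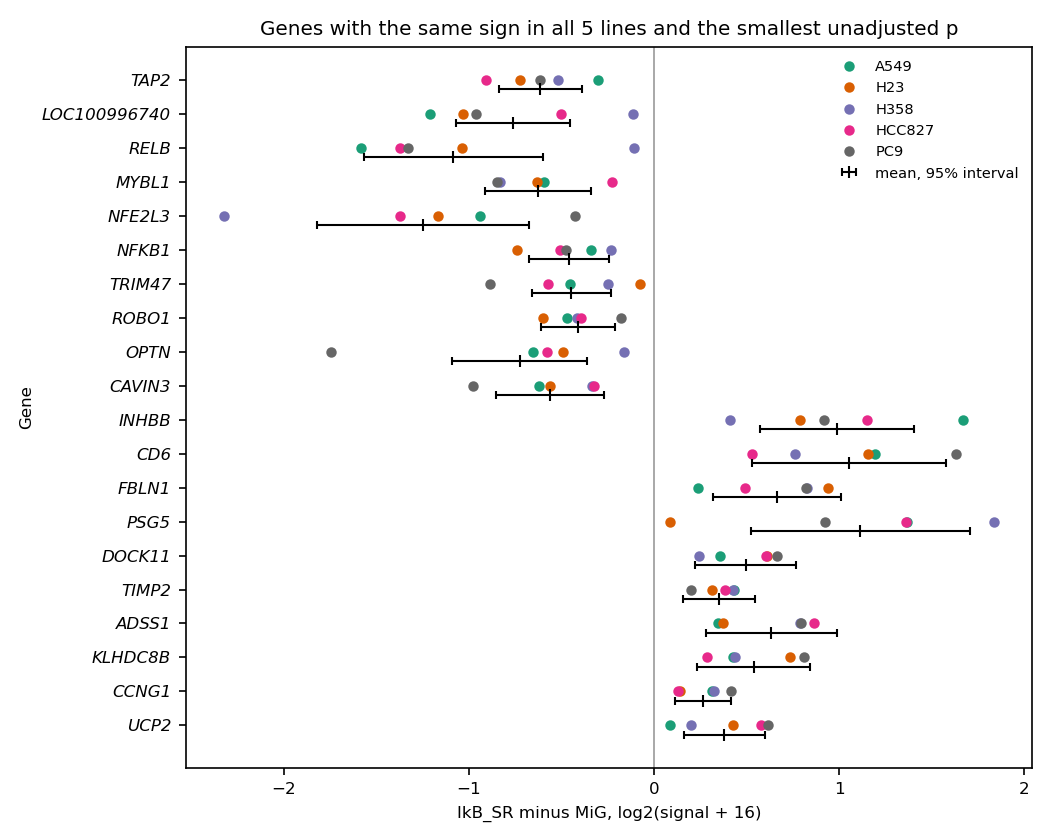
Difference between IkB_SR and MiG in log2(signal + 16) for the 10 genes lower and the 10 higher in all 5 lines with the smallest unadjusted p, 1 point per line, with the limma mean and its 95% interval in black under the points. RELB and LOC100996740 lie close to 0 in H358, OPTN reaches furthest left in PC9, and INHBB spans 0.41 in H358 to 1.67 in A549; these genes were selected for their common sign.

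The list of feedback regulators holds inhibitors of NF-kB, such as TNFAIP3, CYLD and TNIP1, and also adaptors and ligases that can activate it, such as TRAF6 and BIRC2. Of 12 tested, 6 were lower in all 5 lines (TNFAIP3, CYLD, TNIP1, TRAF1, TRAF3 and TRAF6) and 0 were higher in all 5, where 3.69% of all genes were lower. Without H23 the count was 7 of 12, against 7.03% of all genes. TRAF6 lay near control, at -0.12 on average and -0.01 in HCC827. Its other probe set was lower in 3 lines, with 0.48 in H358. The median over the list was -0.25, where the median over all genes was within 0.01 of 0. TNFAIP3, the ubiquitin-editing enzyme A20, had signals with MiG and IkB_SR of 268.9 and 119.6 in A549, 2840 and 926.8 in H23, 285 and 130.1 in H358, 533 and 155.5 in HCC827, and 3679 and 615.3 in PC9. All 5 lines were lower, between 1.04 in H358 and 2.55 in PC9, at a mean of -1.59 ± 0.41 (limma adjusted p = 0.863), and its other probe set was lower in 5 of 5 lines too, at a mean of -1.51. With IKKb and the same controls TNFAIP3 was 1.80.

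TNIP1, which partners A20, was -0.59 ± 0.15. Its signals with MiG and IkB_SR were 2156 and 1568 in A549, 1120 and 735.6 in H23, 2225 and 1881 in H358, 3360 and 2045 in HCC827, and 4132 and 2152 in PC9. The groups overlap between lines, but each line was lower than its own control. CYLD, a deubiquitinase that removes the chains IKK activation needs, was -0.80 ± 0.23 on its brightest probe set, with 5 of 6 measured probe sets lower on average. TRAF3, an adaptor that restrains the non-canonical pathway, was -0.49 ± 0.18, and BIRC2, a ubiquitin ligase of the TNF receptor complex, was -0.31 ± 0.10 and higher than control in H358 alone. BIRC2's 95% interval ran from -0.53 to -0.10.

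Among the subunits and IkB proteins themselves, 2 of 10 were lower in all 5 lines (RELB and NFKB1) and 0 were higher in all, where the shares of all genes were 3.69% and 4.04%. Without H23 it was again 2 of 10, against 7.03%. NFKBIA, which the vector encodes, is a member of this list. RELB signals with MiG and IkB_SR were 228.6 and 65.73 in A549, 548.3 and 259.4 in H23, 70.92 and 64.66 in H358, 309 and 109.6 in HCC827, and 278.4 and 101 in PC9. RELB was lower by 1.03 to 1.58 in 4 lines and by 0.11 in H358, at a mean of -1.09 ± 0.23 (limma adjusted p = 0.725). NFKB2, the p100 and p52 precursor, was 509.4 and 217.1 in A549, 1112 and 460.1 in H23, 66.54 and 85.32 in H358, 229.7 and 76.93 in HCC827, and 268.5 and 96.9 in PC9, so that H358 was the only line not lower on this probe set. A further NFKB2 probe set, above the 40th percentile on all 10 arrays, was lower in all 5 lines, at -0.44 in H358 and a mean of -1.08. H358 also had the lowest RELB and NFKB2 signals of the 5 lines under the empty vector.

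NFKB1, the p50 precursor, was lower by a narrower margin, from 0.23 in H358 to 0.74 in H23, at a mean of -0.46 ± 0.10 (limma adjusted p = 0.725). NFKBIE, the gene of IkBε, was -0.45 ± 0.19 and lower in 4 lines. RELA was -0.05 ± 0.09 and REL was -0.05 ± 0.11, with 95% intervals from -0.25 to 0.15 and from -0.28 to 0.19. The other RELA probe set was at -0.31 on average and lower in 4 lines, with -0.83 in H23 and -0.79 in HCC827, so RELA depends on the probe set. In REL 3 of 5 probe sets had the sign of the brightest.

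The kinases upstream were closer to control, with a median of -0.02 over 18 genes, 5 lower and 2 higher in all 5 lines, where 3.69% and 4.04% of all genes were. Without H23 it was 5 lower, against 7.03%. CHUK and IKBKB, the catalytic subunits of IKK, were -0.07 ± 0.08 and 0.01 ± 0.12. IRAK2, a kinase of the IL-1 and Toll-like receptor pathway, was -0.57 ± 0.16 and lower in 5 of 5 lines, as was the adaptor MYD88 at -0.27 ± 0.08. MAP3K14 (NIK), the kinase that starts the non-canonical pathway, was higher in 5 of 5 lines at 0.45 ± 0.20. TRAF3, described above and lower in every line, is part of the complex that degrades NIK protein.

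Of 20 class I presentation genes, 3 were lower in all 5 lines on their brightest probe sets (TAP1, TAP2 and ERAP2) and 0 were higher in all 5. The shares of all genes were 3.69% and 4.04%. At an unadjusted p under 0.05, 11 were lower, against 2.18% of all genes, and 0 passed the adjusted test. Without H23, where both ERAP2 signals were below the 40th percentile, 4 were lower in every line, against 7.03% of all genes. The list median was -0.26, with medians by line of -0.64 in HCC827, -0.50 in PC9, -0.24 in H23, -0.12 in A549 and 0.08 in H358. H358 was the one line whose median was above 0, and with arrays centred on their medians A549 was too, at 0.07. PSMB9, a catalytic subunit of the immunoproteasome, had signals with MiG and IkB_SR of 536.1 and 314.5 in A549, 2881 and 829 in H23, 2563 and 2708 in H358, 3025 and 735.6 in HCC827, and 431.2 and 89.98 in PC9. It was lower by 0.74 to 2.08 in 4 lines and 0.08 above control in H358, at a mean of -1.31 ± 0.29 (limma adjusted p = 0.725).

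TAP1, whose promoter stretch is shown above, was 659.7 and 602.4 in A549, 3108 and 1021 in H23, 1030 and 1025 in H358, 2334 and 596.5 in HCC827, and 420 and 190.6 in PC9. Its difference was thus over 1 log2 unit in H23, HCC827 and PC9 and near 0 in A549 and H358. TAPBP (tapasin), which bridges TAP to the class I heavy chain, was -0.51 ± 0.12. ERAP2, a peptide-trimming peptidase, was -0.57 ± 0.19. The heavy chain HLA-B was -0.33 ± 0.12 and lower in 4 lines, while the light chain B2M was -0.13 ± 0.11 with signals of at least 10600 on every array. HLA probe sets can share sequence among class I genes, so their separate values are uncertain.

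**Figure D3:**
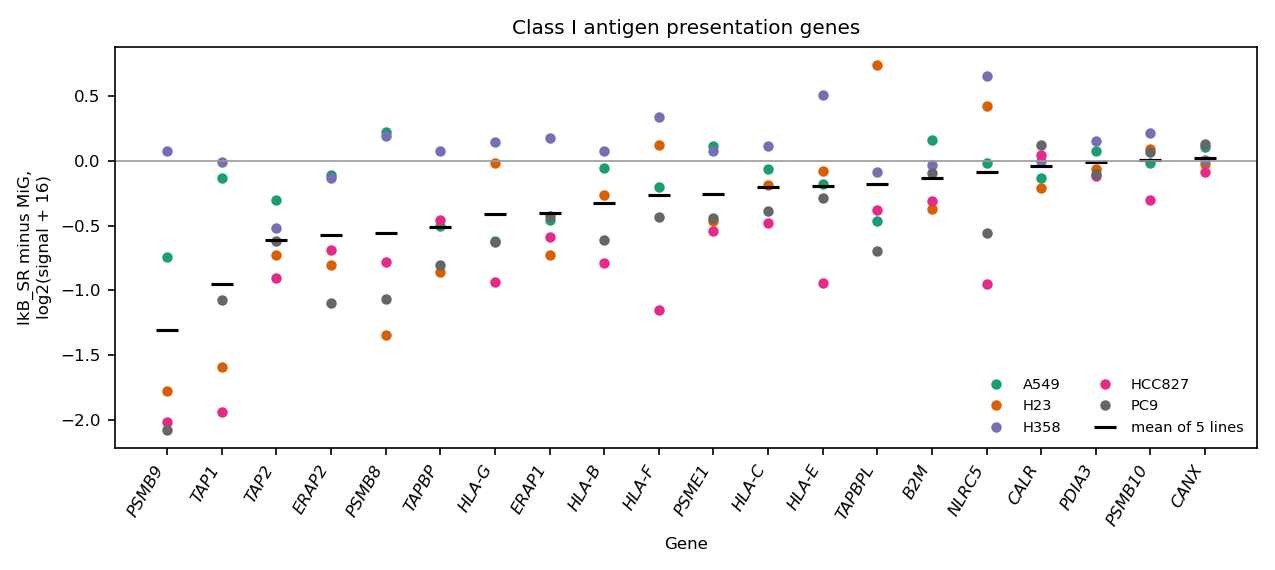
Difference between IkB_SR and MiG in log2(signal + 16) for the 20 class I presentation genes, ordered by their mean over lines (black bar), 1 point per line. PSMB9 and TAP1 lie lowest, at means of -1.31 and -0.95, and the H358 points sit near or above 0 for most genes.

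Differences in chemokines varied from line to line. Over 14 tested, the median was -0.51. Of these, 3 were lower in all 5 lines (CCL2, CXCL2 and CXCL3) and 0 were higher in all, where 3.69% and 4.04% of all genes were. Without H23, 4 were lower, against 7.03% of all genes. Some of these signs rest on small differences: CXCL2 was at -0.02 in A549 and CXCL3 at -0.06 in H358. In HCC827, 6 of the 14 were at least 2-fold lower, against 2.98% of all genes, and in H358 3 of 14, against 1.42%. CXCL8 (IL-8), a neutrophil attractant, had signals with MiG and IkB_SR of 728.1 and 616.5 in A549, 1352 and 1516 in H23, 6090 and 5878 in H358, 832.8 and 79.66 in HCC827, and 194 and 23.07 in PC9. It was 3.15 log2 units lower in HCC827 and, as a bound, at -2.10 or less in PC9, and within 0.23 of control in the other 3 lines, H358 among them despite the highest signal. The mean of -1.14 ± 0.74 thus describes no single line.

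CCL2, a monocyte attractant, was 665.8 and 417 in A549, 7212 and 1246 in H23, 13.04 and 1.351 in H358, 927 and 122.7 in HCC827, and 3.825 and 2.373 in PC9. The H358 and PC9 values lay below the 40th percentile with both vectors, so only A549, H23 and HCC827 measured a difference. CXCL1 was 0.22 and 0.02 above control in A549 and H23, where its signal was 1232 and 1493 with MiG, at -1.29 in H358 and -1.25 in PC9, and at a bound of -1.45 or less in HCC827. CCL20 was 1565 and 562 in H23 and 93.95 and 2.587 in H358, and under the 40th percentile with both vectors in the other 3 lines. CCL5 was measured with MiG in H23 and HCC827, and was 510.6 and 61.91 in H23.

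Of 21 cytokines and growth factors, 2 were lower in all 5 lines (IL32 and IL6) and 1 was higher (VEGFA), where 3.69% and 4.04% of all genes were; without H23, 4 were lower, against 7.03%. In A549 both IL6 signals were below the 40th percentile. IL32, an intracellular and secreted cytokine, had signals with MiG and IkB_SR of 141.9 and 3.343 in A549, 35.96 and 4.597 in H23, 25.05 and 3.764 in H358, 302 and 18.23 in HCC827, and 6.974 and 4.251 in PC9. All 5 IkB_SR arrays were below their 40th percentile, as were the MiG arrays of H23, H358 and PC9, where the sign is read from background. Only A549 and HCC827 held a difference, at bounds of -1.57 or less and -2.74 or less. With every signal below the percentile set to it, the mean over 5 lines was -0.83. The measured mean was -1.76 ± 0.48 (limma adjusted p = 0.934). IL6 was 28.75 and 25.67 in A549, 83.24 and 36.94 in H23, 289.9 and 255.8 in H358, 1617 and 325 in HCC827, and 725.2 and 190.5 in PC9. HCC827 and PC9 again held the largest differences, -2.26 and -1.84, and the mean was -1.06 ± 0.47 (limma adjusted p = 0.996). VEGFA was 0.16 ± 0.06.

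Adhesion and effector genes held members on either side of control. ICAM1, the leukocyte adhesion ligand, had signals with MiG and IkB_SR of 55.46 and 11.08 in A549, 1295 and 515.3 in H23, 452.5 and 520.1 in H358, 461.4 and 193.6 in HCC827, and 758.1 and 362.9 in PC9. It was lower by at least 1.03 in PC9, HCC827 and H23 and by a bound of 0.42 or more in A549, and 0.19 higher in H358, at a mean of -0.95 ± 0.29 (limma adjusted p = 0.996). A further ICAM1 probe set was lower in all 5 lines, with -0.02 in H358 and -0.63 in A549, and the dimmest of the 3 was lower in 3 lines, with 0.12 in H358. ITGAV, an integrin subunit, was -0.32 ± 0.10 and lower in 5 of 5. CD83, a surface protein of activated antigen-presenting cells, was -0.70 ± 0.33 and lower in 5 of 5, and IL7R, the interleukin-7 receptor chain, was -0.62 ± 0.26, with 2 lines below the 40th percentile under both vectors. SOD2, mitochondrial superoxide dismutase, was measured on the 1 probe set that names it alone and was 0.15 ± 0.30 and higher in 5 of 5 lines, with a 95% interval from -0.48 to 0.79, while with IKKb and the same controls it was 1.09. TNFAIP2 was -0.12 ± 0.15 and PTGES, a prostaglandin E synthase, was 0.51 ± 0.17 and higher in all 5. Over the 24 effector genes the median was -0.12, with 4 lower and 3 higher in all 5 lines, where 3.69% and 4.04% of all genes were. Without H23, 4 were lower, against 7.03% of all genes.

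The death receptor FAS was -0.61 ± 0.21, lower in 4 lines and most so in PC9 (1426 and 578) and H23 (522 and 224.3). Over 20 receptors of the TNF and IL-1 families, 1 was lower and 1 higher in all 5 lines, shares near those of all genes (3.69% and 4.04%), at a median of -0.09. Without H23, 3 were lower, against 7.03% of all genes. The anti-apoptotic and BCL2 list was as near control, with a median of -0.07 over 18 genes and 1 in each direction in all 5 lines, again near the shares of all genes. The one lower was BCL2A1, an anti-apoptotic NF-kB target, at -0.95 ± 0.56. Its signals were 183 and 48.71 in A549 and 278.4 and 83.44 in H358, and lay below the 40th percentile with both vectors in the other 3 lines. The one higher was the pro-apoptotic BCL2L11 (BIM), at 0.26 ± 0.12 on its brightest probe set. Of its 7 measured probe sets, 5 had that sign on average, and the next brightest was at -0.04 and lower in 3 lines.

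Interferon-stimulated genes, which type I interferon induces through JAK and STAT signalling, were far below control in the HCC827 pair. Of 28 tested, 25 were at least 2-fold lower there, against 2.98% of all genes, and all 28 were below control. The median of all genes there was 0.02. The list median was -2.54 in HCC827, against -0.38 in PC9, -0.22 in H23, -0.08 in A549 and 0.03 in H358 (0.10 in A549 with centred arrays). IFI27 was 8016 with MiG and 175.7 with IkB_SR in HCC827, IFI44L was 4898 and 105.9, and MX1, an antiviral GTPase, was 10220 and 430.5. On the log2(signal + 16) scale IFI27 was 5.39 lower, a 41.9-fold difference between 2 single arrays.

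The level under the empty vector also differed by line. The median signal of the 28 genes with MiG was 3184 in HCC827, 1149 in H358, 141.3 in PC9, 102.6 in A549 and 83.13 in H23. With IkB_SR the HCC827 median was 400.2 and the H358 median 1070, and with IKKb they were 4808 and 638.9. H358, the line with the next highest level, therefore lay close to its control while HCC827 lay far below. IFIT2, IFIT3 and OAS3, antiviral effectors, and XAF1 were lower in all 5 lines, 4 of 28 where 3.69% of all genes were. Without H23 it was 6 of 28, against 7.03%. XAF1 lay below the 40th percentile with both vectors in A549, H23 and PC9, so its sign there is read from background. OAS3 was -1.09 ± 0.35 (limma adjusted p = 0.996), with -2.99 in HCC827 and -0.21 to -0.99 elsewhere. IFNB1, which encodes interferon β and was picked out after its values were seen, was at 33.13 with MiG, 4.49 with IkB_SR and 127.8 with IKKb in HCC827. Only the last of these lay above the 40th percentile, and the other 12 arrays were at 11.14 or less.

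**Figure D4:**
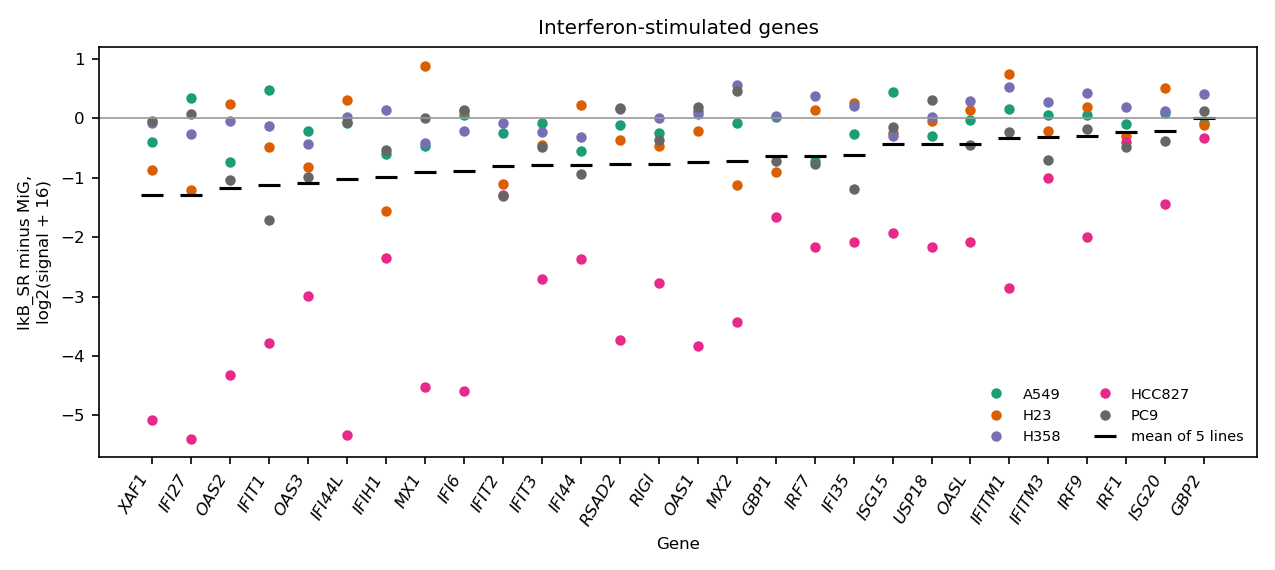
Difference between IkB_SR and MiG in log2(signal + 16) for the 28 interferon-stimulated genes, ordered by their mean over lines (black bar), 1 point per line. The HCC827 points lie lowest for most genes and reach -5.39 for IFI27, while the other 4 lines scatter around 0.

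Of the groups outside inflammation, the 21 NRF2 targets had a median of 0.19, with 6 higher in all 5 lines (4.04% of all genes were) and 5 higher at an unadjusted p under 0.05 (2.18% of all genes). Among them AKR1C1, a ketosteroid reductase, was 0.44 ± 0.15 on its brightest probe set. The next brightest AKR1C1 probe set was at 0.03 on average, with -0.84 in H23 and -0.09 in HCC827. NQO1, a quinone reductase, was 0.20 ± 0.08. ME1 was 0.19 ± 0.08 on its brightest probe set, and a further one was 0.22 and higher in all 5 lines. The mean of the ME1 probe sets was -0.06, but it includes a dim one, above the 40th percentile on 4 of the 10 arrays. Housekeeping genes had a median of 0.02 over 15 genes and ribosomal protein genes 0.07 over 21. Cell cycle and replication genes had a median of -0.06 over 30, and H358 stood apart at -0.33, with 27 of 30 below control, against -0.04 to 0.07 in the other lines. The median of all genes in H358 was 0.01. CDC25A, a phosphatase that drives entry into S phase, was 586.2 with MiG and 183.9 with IkB_SR in H358.

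**Figure D5:**
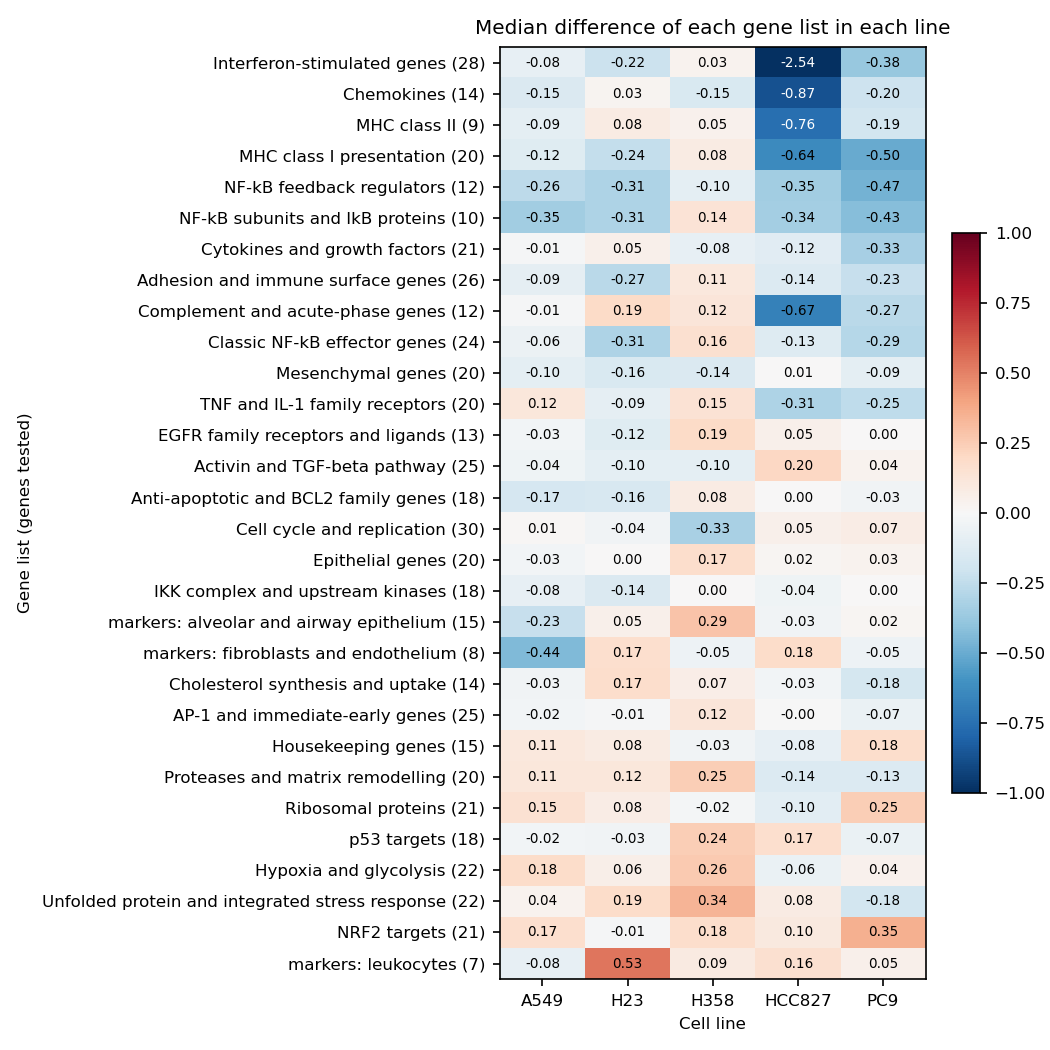
Median difference between IkB_SR and MiG in log2(signal + 16) of each of 30 gene lists (rows, with the number of genes tested) in each line (columns), with the value printed in each cell and colours ending at -1 and 1. The HCC827 column holds the lowest medians, -2.54 for interferon-stimulated genes and -0.87 for chemokines, and the NF-kB subunits are below 0 in every line but H358, at 0.14 (0.08 without NFKBIA); with centred arrays some medians near 0 in A549 and H23 change sign.

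Single lines had their own lists. Counting signals below the 40th percentile as that percentile, genes at least 2-fold lower and higher numbered 190 and 88 in HCC827, 162 and 70 in PC9, 122 and 46 in A549, 91 and 168 in H23, and 68 and 127 in H358. In A549 HMGA2, a chromatin architectural factor, went from 1306 with MiG to 199.1 with IkB_SR and the BMP antagonist GREM1 from 982.6 to 224, while CEACAM5 went from 245.7 to 1082. In H23 the vitamin D hydroxylase CYP24A1 went from 786.7 to 3206. In PC9 the collagen chain COL6A2 went from 2204 to 309.8, HDAC9 from 1140 to 199 and ITGAM from 411.3 to 30.91, whereas IGFBP5 went from 343.2 to 2314. Each of these is a difference between 2 arrays.

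COL6A2 was at -1.45 ± 0.46 as measured, but 3 IkB_SR arrays lay below the 40th percentile, and HCC827 with both vectors. With the percentile in place of such signals its mean was -1.05. Its partner chain COL6A1 was -0.94 ± 0.32. ITGAM encodes an integrin chain best known from myeloid cells and was lower in 4 lines, at -1.51 ± 0.34 as measured. With signals below the 40th percentile set to it, in 3 IkB_SR arrays, the mean was -1.34, and its other probe set was at -0.03 on average. Of 14 leukocyte markers measured, PTPRC, NKG7 and CD163 were above the 40th percentile on none of the 10 arrays and 2 were above it on all, and their summed signal ran from 487.4 to 1025 with MiG and from 446.8 to 903.8 with IkB_SR. The 16 fibroblast and endothelial markers summed to 1441 to 3587 with MiG and 1418 to 3889 with IkB_SR. The alveolar and airway markers summed to 1717 to 14120 and 1868 to 18980. These ranges overlap between vectors.

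In H23 and H358 the NFKBIA signal and the NF-kB genes did not go together. The array labelled H23 IkB_SR had less NFKBIA than its control, yet RELB was -1.03, NFKB2 -1.24, TNFAIP3 -1.60, PSMB9 -1.78, CCL2 -2.52 and CCL5 -2.76. The H358 IkB_SR array had 4.05-fold more NFKBIA (log2(signal + 16) scale), yet RELB was -0.11, NFKB2 0.30, PSMB9 0.08 and ICAM1 0.19, while TNFAIP3 was -1.04, NFE2L3 -2.32, CXCL1 -1.29 and CCL20 at a bound of -1.01 or less. The further NFKB2 probe set was at -0.44 in H358, and those of ICAM1 at -0.02 and 0.12. Without H358, the limma fit over the other 4 lines called 8 genes at an adjusted p of 0.05. They were NFKB2 (-1.29, adjusted p = 0.0024), RELB (-1.33), PSMB9 (-1.65), TAPBP (-0.65), NT5E (-0.68) and LOC100996740 (-0.93), which were lower, and RHOB (0.65) and INHBB (1.13), which were higher. Leaving out H358 was done because each line was left out in turn, and the other 4 such fits called 0 genes.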

How the data were processed

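The human table holds 54675 probe sets, of which 41097 name 1 gene, 1801 several and 11777 none. The deposited values are intensity on a linear scale, computed by the authors with GCOS 1.4 and MAS5, per the submitters' processing notes, and scaled to a trimmed mean of 500, as checked on the arrays. That scaling removes any difference in total RNA, and MAS5 signals near background are noisy; the number of arrays also limits the precision. The brightest probe set stood for each of 19775 genes, as log2(signal + 16), and 15185 genes above the 40th percentile on at least 5 of 15 arrays were tested. Probe sets were named from the platform annotation. The limma 3.58.1 fit (lmFit, eBayes with an intensity trend, R 4.3.3) took 15 arrays, vectors MiG, IkB_SR and IKKb, blocked by cell line, and p-values were two-sided and Benjamini-Hochberg adjusted over all genes. The fit was also run on simulated data, whose outcome is not given here, so nothing is concluded from that run. The pairing comes from the line, which each number stands for.

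Genes lower or higher in all 5 lines were ranked by p, 10 in each direction. A fixed set of NF-kB genes was added, up to 4 genes of each list with an unadjusted p under 0.05 and the same sign in at least 4 lines, and up to 5 genes per line and direction. Genes outside this rule are named as list members or as picked after their values were seen. The members and lists were chosen with earlier results of these data known. A few items that the rule picks are left out. The alternatives changed the pseudocount (1 or 64), the scaling (quantile or median), the filter, the probe sets (their mean), the prior, the block and the arrays (10, or without 1 line). Counts without H23, signals below the 40th percentile set to it, and the subunit list without NFKBIA were added after seeing the data. The mouse arrays were not used. Python 3.11.15 with matplotlib 3.10.9 drew the figures.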

Additional observations from a re-analysis of the deposited data

Results flagged for a closer look

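Among 92 genes and 30 list medians, 12 had 1 line far from the other 4, a gap that chance gives in about 1 group in 20. H358 stood above the others for NFKB2, at 0.2957 against -1.403 to -1.172 (-0.4439 on a further probe set, so the sign turns with the probe set), for ICAM1, at 0.1945 against -1.4 to -1.031 (-0.0194 and 0.1218 on its further probe sets), and for the median of the NF-kB subunits and IkB proteins, at 0.14 against -0.4254 to -0.308. That list holds NFKBIA, which the vector encodes, and without it the H358 median was 0.0759. Its cell cycle and replication median was below the others, at -0.3264. HCC827 stood below the others for TRAF1 at -1.205 (-0.7259 with its dim IkB_SR signal set to the 40th percentile), OAS3 at -2.995 and IFIT3 at -2.71. HCC827 was also below for BCL2L11, at 0.04299 on its brightest probe set (-0.4336 on the next brightest). The same held for its medians of chemokines at -0.8683 and interferon-stimulated genes at -2.536. H23 was below for LOXL2 at -0.2568, where the others were between 0.3331 and 0.5181, and above for DUSP4 at 1.392, where they were between 0.04039 and 0.325. All are differences in log2(signal + 16) between 1 IkB_SR and 1 MiG array.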

How the results depend on the processing

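Across 16 alternatives, 14 called 0 genes, including the fit with no replicate block (0 genes). Both fits call 0, but genes at an unadjusted p under 0.05 numbered 662 with the block for line and 31 without it. The 10-array fit called 1, TNFAIP3 at an adjusted p of 0.0482, and leaving out 1 line gave 0 to 8, the 8 without H358. Genes lower in every line numbered 333 with median centring, and 954 to 1125 over 4 lines, which by construction admits more; genes higher in every line numbered 969 to 1376 over 4 lines. The leukocyte marker median was 0.6823 with a pseudocount of 1, -0.909 with the filter at the 60th percentile, which keeps fewer genes, and 0.109 to 0.4649 with 1 line left out, lowest without H358. The cytokine median was -0.03749 with that filter, and the mesenchymal median was -0.1816 to -0.0935 with 1 line left out, lowest without A549. With the mean of probe sets the sign reversed for REL (0.007304), IKBKB (-0.0135) and ME1 (-0.05641). With 1 line left out, REL ran from -0.1447 to 0.02666, above 0 without H23, IKBKB from -0.1071 to 0.08086, below 0 without H358 or without HCC827 (-0.01938), CXCL10 from -0.2802, without H23, to 0.5024, and RELA from -0.08722 to 0.0001149, above 0 without PC9. The cause was not tested. IL32 and CD6 lay near background.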

Other observations

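Some gene groups stood off control in 1 line, as values with no test, since each line has 1 array per vector. The share of all genes on each side of control was not counted by line. The median of all genes was 0.01 in H358, 0.003 in PC9, 0.02 in HCC827 and -0.05 in A549. In H358, 21 of 22 genes of the unfolded protein and integrated stress response were above control, at a median of 0.34, where PC9 had 16 of 22 below it at -0.18. EDEM1, which targets misfolded proteins for degradation, was 1.09 higher in H358, and DDIT4, an inhibitor of mTOR signalling, was 0.71 higher. The same H358 pair held the lower replication genes, with MCM5 at -1.17 and CDC6 at -1.01, while CDKN1A was 0.55 higher.

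In HCC827 the groups next to the interferon-stimulated genes were low as well, with all 9 MHC class II genes below control at a median of -0.76 and 10 of 12 complement and acute-phase genes at -0.67. In A549 all 21 NRF2 targets were above control, at a median of 0.17 (0.10 with quantile normalisation, 0.35 with median centring), but so were 20 of 21 ribosomal protein genes at 0.15 and 12 of 15 housekeeping genes at 0.11. The genes named here were chosen after their values were seen.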
